A study of Mus musculus with 24 samples.

Results

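Tumour necrosis factor (Tnf) and its receptors Tnfrsf1a and Tnfrsf1b were followed through macrophages with and without the kinase MK2. With them went Tnfaip3, the gene for A20, a brake on NF-kB, and Tnip1 and Tnip3, the genes for ABIN-1 and ABIN-3. The inhibitor-of-kappaB genes Nfkbia, Nfkbid and Nfkbiz and the TNF-induced gene Tnfaip2 completed the set. These 10 genes were chosen by name from the 54429 gene symbols of the deposited tables, with earlier results of these data known. All 10 were among the 12797 genes with enough counts to be tested. The cells came from the marrow of C57BL/6N mice and were cultured in 10 ng/ml M-CSF until they were replated after 7 days. They were then exposed for 24 h to 10 ng/ml IL-4 (M2) or to none (M0). The 4 groups of 6 RNA-seq libraries were MK2 knockout (KO) with IL-4, KO without IL-4, MK2 wild type (WT) with IL-4, and WT without IL-4. All groups shared the strain, the M-CSF culture and the replating, and the labels' protocols name no other stimulus. The labels give neither the deleted part of the MK2 gene nor how many animals or cultures stand behind the 6 libraries of a group, and the p-values cover the variation among these libraries, which may be technical.

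TNF is made as a membrane protein, cut from the cell surface by ADAM17, and bound by TNFR1 (Tnfrsf1a), which most cells carry, and TNFR2 (Tnfrsf1b), which is found mainly on immune and endothelial cells. Both receptors lead to breakdown of IkappaB-alpha (Nfkbia), which frees NF-kB to enter the nucleus, and NF-kB then switches on its own brakes, among them Nfkbia and A20 (Tnfaip3), so the pathway is a feedback loop. In macrophages MK2, a kinase activated by p38, is known to act on tristetraprolin and other proteins that bind AU-rich stretches in messages such as that of Tnf, and IL-4 is known to dampen inflammatory genes through STAT6.

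The stretch that makes the Tnf message a classical AU-rich message lies in its 3' untranslated region. The 9-base motif TTATTTATT was searched on the message strand in 1 annotated transcript per gene (GENCODE M21, mm10). It occurred 5 times in the 764 bases of the Tnf 3' untranslated region, once each in Tnfaip3 and Nfkbia, and not at all in the other 7 genes. Of 20733 genes with such a region, 7.13% held the motif and 0.579% held it 3 times or more. Copies in Tnf overlap each other, and a match is a description of letters, not of binding. The 30 bases around the matches are shown for these 3 genes with the motif in capitals, because they alone of the 10 carry it. They lie on the mm10 minus strand at chr17:35199679-35199708 (Tnf, 4 of its 5 copies), chr10:19001754-19001783 (Tnfaip3) and chr12:55489608-55489637 (Nfkbia).
Tnf: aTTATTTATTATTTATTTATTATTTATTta
Tnfaip3: tTTATTTATTatgaacttccaagttattta
Nfkbia: aggaccacgttTTATTTATTgtgcttttga

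The 250 bases before annotated starts of the genes (RefSeq, GRCm38.p6) were available for 9 of the 10 genes, all but Nfkbiz. They were searched on both strands for the kappaB consensus, the site that NF-kB binds, which 3.9% of 32851 promoters held, and for the STAT6-type motif, TTC and GAA parted by any 4 bases, which 5.85% held. A kappaB match was present in Tnip3, Nfkbia, Tnip1, Tnfaip3 and Nfkbid, with overlapping matches in Tnip1, and not in these windows of Tnf, Tnfrsf1a, Tnfrsf1b or Tnfaip2. The STAT6-type motif was found in 1 of the 9 genes, Tnfaip3. Where a gene has several starts, a match before any of them was counted. These genes are thus counted per gene, whereas the shares above are per promoter. No match says nothing of sequence outside the window. The windows of Tnip3 (chr6:65590148-65590397, plus strand), Nfkbia (chr12:55492648-55492897, minus strand) and Tnf (chr17:35202008-35202257, minus strand) are shown, each of a gene past the threshold for genotype or for IL-4 below. The window of Tnfrsf1b, which passed for IL-4 in both genotypes, held neither motif and is not shown. The Tnip3 window lies inside the gene as annotated in mm10 (chr6:65525313-65634040), before a start within it. Capitals mark the kappaB match.
Tnip3: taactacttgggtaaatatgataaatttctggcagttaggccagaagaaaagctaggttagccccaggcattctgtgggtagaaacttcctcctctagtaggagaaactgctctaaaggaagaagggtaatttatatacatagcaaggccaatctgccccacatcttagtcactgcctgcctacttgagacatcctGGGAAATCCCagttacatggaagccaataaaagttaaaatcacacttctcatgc
Nfkbia: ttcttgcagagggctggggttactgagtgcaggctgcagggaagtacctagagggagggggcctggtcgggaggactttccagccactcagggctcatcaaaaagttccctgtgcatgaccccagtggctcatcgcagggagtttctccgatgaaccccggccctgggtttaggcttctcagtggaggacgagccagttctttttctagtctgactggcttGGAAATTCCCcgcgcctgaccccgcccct
Tnf: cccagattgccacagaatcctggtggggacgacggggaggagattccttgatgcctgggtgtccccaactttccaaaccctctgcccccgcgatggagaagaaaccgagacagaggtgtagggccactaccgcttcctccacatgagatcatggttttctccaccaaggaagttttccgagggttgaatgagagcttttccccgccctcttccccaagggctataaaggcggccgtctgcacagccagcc

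The libraries held 7893809 to 13492507 counts each. Mapkapk2, the gene for MK2, served to check the labels. It was at 54.0 ± 4.38 CPM (counts scaled to a common library size) in KO with IL-4 and 58.8 ± 2.88 CPM in KO without it, against 119.8 ± 9.93 CPM in WT with IL-4 and 118.7 ± 13.9 CPM in WT without it (SD, n = 6). Every KO library lay below every WT library. Of 8 genes that mark alternative activation, 8 were higher with IL-4 in each genotype. Markers of stromal cells were low in all groups and lower in KO: the 15 genes of that list summed to 11.4 to 27.3 CPM in KO with IL-4 and 10.9 to 29.7 CPM in KO without it, against 133 to 185 CPM in WT with IL-4 and 136 to 215 CPM in WT without it. Of the 13 stromal genes tested, 13 were lower in KO in each state, and Lum, which marks fibroblasts, was near 0 in all groups, with 2 counts in KO with IL-4 and 0 in KO without it, against 8 in WT with IL-4 and 1 in WT without it. Of 10 macrophage markers, 1 was higher and 3 were lower in KO in each state. Lyz2, the most abundant of them, averaged 8088 CPM in KO with IL-4 and 8678 CPM in KO without it, against 10171 CPM in WT with IL-4 and 11334 CPM in WT without it. Csf1r, the receptor for M-CSF, averaged 1301 CPM in KO with IL-4 and 1133 CPM in KO without it, against 1159 CPM in WT with IL-4 and 990.1 CPM in WT without it. The KO and WT ranges of Csf1r overlapped in each state. Itgam, another of these 10 markers, averaged 612 CPM in KO against 537 CPM in WT with IL-4. Without IL-4 it averaged 524 CPM in KO against 437 CPM in WT, and its KO and WT ranges overlapped in neither state. The part of these marker differences in the genotype results below was not tested, and in bulk RNA fewer cells of a type and less RNA per cell cannot be told apart. By library number in the labels, replicates 1 to 3 and replicates 4 to 6 form separate sets within each group, and 3 libraries (KO with IL-4 replicate 2, WT with IL-4 replicate 2, WT without IL-4 replicate 3) are numbered apart. Values are also given per set where the sets part.

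Levels between genes were compared in GETMM, a count scaled for gene length and library. In all 4 groups Tnfaip2, Tnfrsf1b, Tnfrsf1a and Tnip1 stood highest in that order, and Tnf, Nfkbid and Nfkbiz lowest in that order. In KO without IL-4 the GETMM levels ran from 322 ± 52.5 for Tnfaip2 through 199 ± 25.2 for Tnfrsf1b, 109 ± 4.42 for Tnfrsf1a and 14.8 ± 1.78 for Tnf to 2.06 ± 0.215 for Nfkbiz (SD, n = 6). In WT without IL-4 the same genes had GETMM levels of 310 ± 47.8, 205 ± 17.9, 106 ± 8.19, 9.24 ± 0.908 and 2.14 ± 0.554 (SD, n = 6). The message of TNFR2 was thus the more abundant receptor message, and both receptor messages stood above that of their ligand in every library. The places of Tnip3, Nfkbia and Tnfaip3 between these differed from group to group. Tnip3 was 5th in both KO groups, at 43.2 ± 7.14 GETMM with IL-4 and 39.8 ± 3.79 GETMM without it, against 6th in WT with IL-4 at 21.1 ± 3.20 GETMM and 7th in WT without it at 19.9 ± 1.47 GETMM (SD, n = 6). Neighbours whose library ranges overlapped were Tnf and Nfkbid in 3 groups (KO without IL-4 being the exception), Nfkbia and Tnfaip3 in both groups without IL-4, Tnfaip3 and Tnip3 in both WT groups, Tnip1 and Tnip3 in KO with IL-4, and Tnip3 and Nfkbia as well as Tnfaip2 and Tnfrsf1b in WT with IL-4.

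**Figure D1:**
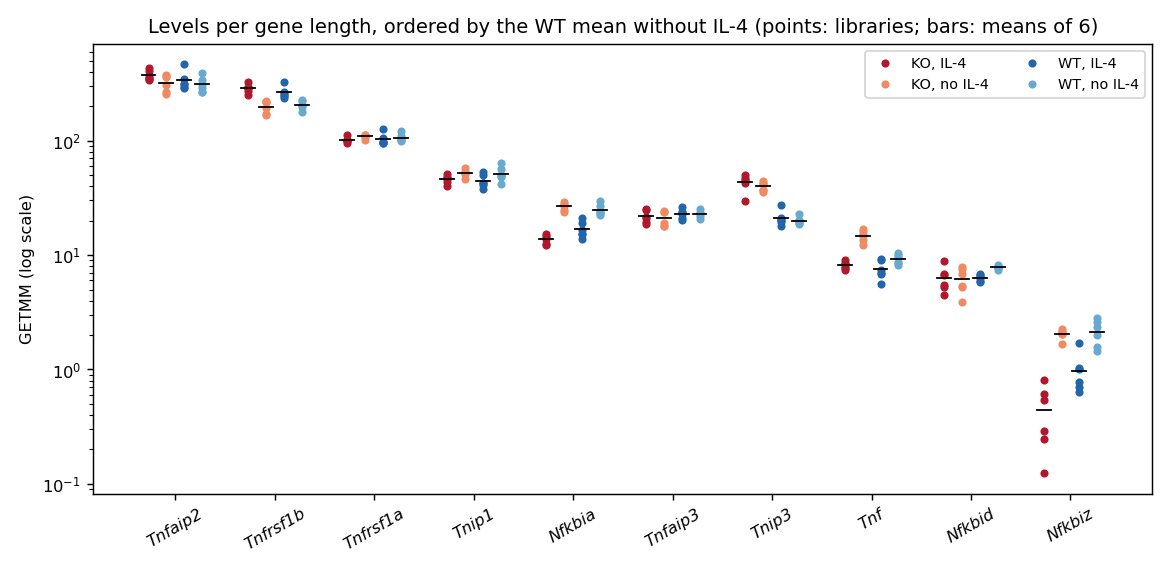
GETMM level (log scale) of the 10 genes in each of 24 libraries, with the genes in the order of their WT means without IL-4, points for libraries and bars for the means of 6. Tnfaip2 and Tnfrsf1b lie above 160 in all libraries, Nfkbiz lies below 3, and Tnip3 is the gene whose KO points stand above its WT points both with and without IL-4.

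With IL-4, 4 of the 10 genes changed in KO macrophages and 3 changed in WT macrophages. In KO, Tnf, Nfkbia and Nfkbiz fell and Tnfrsf1b rose, so the messages of the ligand and of IkappaB-alpha were lower while that of TNFR2 was higher. In WT, Nfkbia and Nfkbiz fell and Tnfrsf1b rose, and Tnf missed the threshold in this fit, which takes no pairing of libraries into account. By edgeR's quasi-likelihood test at an adjusted p of 0.05, 23.6% of all genes changed with IL-4 in KO (12.2% higher, 11.4% lower) and 16.4% in WT (8.49% higher, 7.95% lower). The 4 of 10 and 3 of 10 are to be read against that broad response. Because the 10 genes were chosen with earlier results of these data known, their shares, here and below, are a description only. The median log2 fold change of the 10 genes was -0.02 in KO and -0.13 in WT, against -0.00 and -0.02 over all genes tested. Without MK2, 2 of the 10 genes differed in each state: Tnf and Tnip3 were higher in KO than in WT without IL-4, and with IL-4 Tnip3 was higher and Nfkbiz lower in KO. Of all genes, 4.52% differed without IL-4 (1.10% higher in KO, 3.42% lower) and 4.59% with IL-4 (1.51% higher in KO, 3.09% lower). The median log2 fold change of the 10 genes for KO against WT was 0.01 without IL-4 and 0.02 with it, against -0.01 and 0.01 over all genes.

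**Figure D2:**
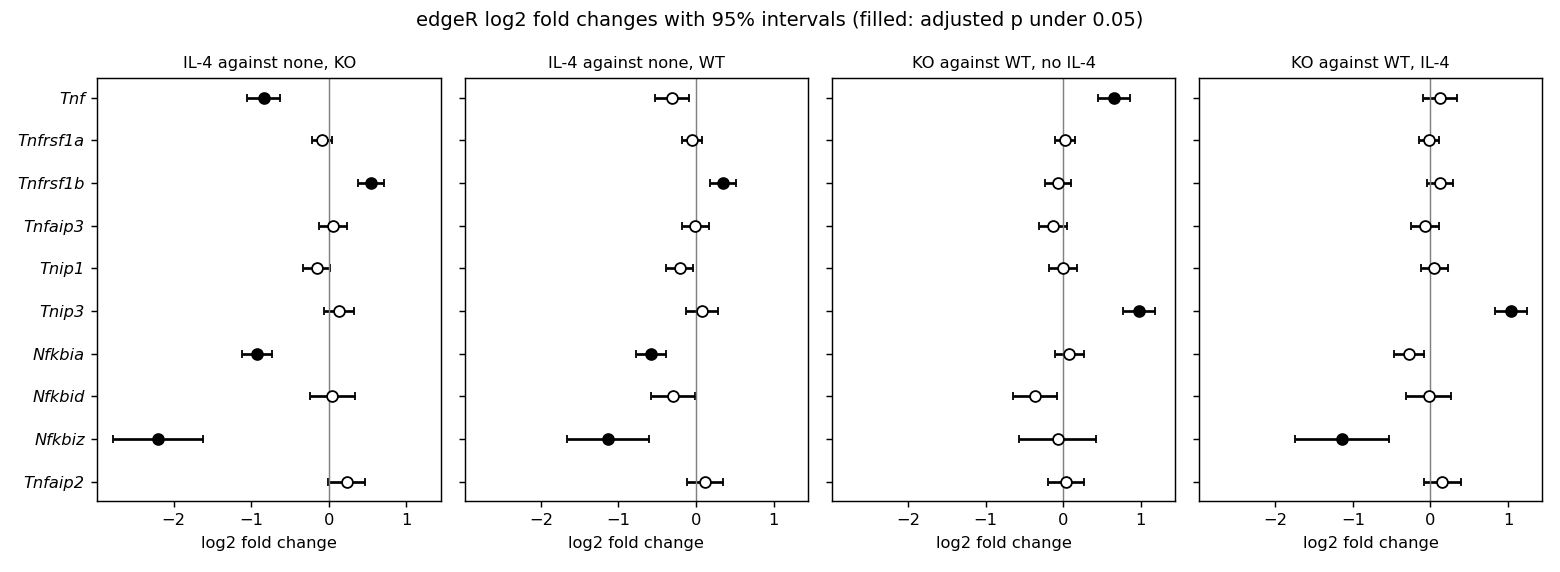
Log2 fold changes of the 10 genes from edgeR with 95% intervals, for IL-4 against none in KO and in WT and for KO against WT without and with IL-4, filled where the adjusted p was under 0.05. The filled points are Tnf, Tnfrsf1b, Nfkbia and Nfkbiz (IL-4 in KO), Tnfrsf1b, Nfkbia and Nfkbiz (IL-4 in WT), Tnf and Tnip3 (KO without IL-4), and Tnip3 and Nfkbiz (KO with IL-4).

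Tnf (chr17:35199381-35202007, minus strand, mm10), the ligand, had a lowest, median and highest level of 6.95, 7.56 and 8.38 CPM in KO with IL-4, against 11.05, 13.7 and 15.5 CPM in KO without it. In WT it had 5.18, 6.77 and 8.55 CPM with IL-4, against 7.60, 8.43 and 9.91 CPM without it. The KO libraries without IL-4 therefore stood above all others, with no overlap with either KO with IL-4 or WT without IL-4, whereas the KO and WT ranges with IL-4 overlapped, as did the WT ranges with and without it. The counts behind these levels were 60 to 99 per library in KO with IL-4, 106 to 154 in KO without it, 56 to 84 in WT with IL-4 and 68 to 111 in WT without it.

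Tnf fell with IL-4 in KO by 0.84 on the log2 scale (SE 0.11, edgeR adjusted p = 1.39e-06). In WT the log2 fold change with IL-4 was -0.31 (SE 0.11, edgeR adjusted p = 0.0596). It was -0.54 in replicates 1 to 3 (adjusted p = 0.0379) and -0.07 in replicates 4 to 6 (adjusted p = 0.792). The WT value passed the threshold in 5 of 13 alternatives. Among these was the fit with the labels' LS number, shared by 1 M0 and 1 M2 library of a genotype, as a block (edgeR adjusted p = 0.0347). The WT value also passed in 3 of 24 fits that left out 1 library. Those were the fits without WT with IL-4 replicate 4 or 6 (adjusted p = 0.0244 and 0.0316) and without WT without IL-4 replicate 5 (adjusted p = 0.0496). Tnf was higher in KO than in WT without IL-4 by a log2 fold change of 0.66 (SE 0.11, edgeR adjusted p = 1.50e-04). It passed the threshold in each set alone, with 0.77 in replicates 1 to 3 and 0.57 in replicates 4 to 6. With IL-4 the difference between KO and WT was 0.12, with a 95% interval from -0.10 to 0.34 (edgeR adjusted p = 0.793). Its sign differed between the sets, with 0.38 in replicates 1 to 3 and -0.13 in replicates 4 to 6. The fall with IL-4 in KO and the difference between the genotypes without IL-4 rest on the same 6 KO libraries. The difference between the IL-4 responses of the genotypes was -0.53 for Tnf, with an unadjusted interval from -0.84 to -0.23. Its unadjusted p of 0.0020 gave an adjusted p of 1.00.

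**Figure D3:**
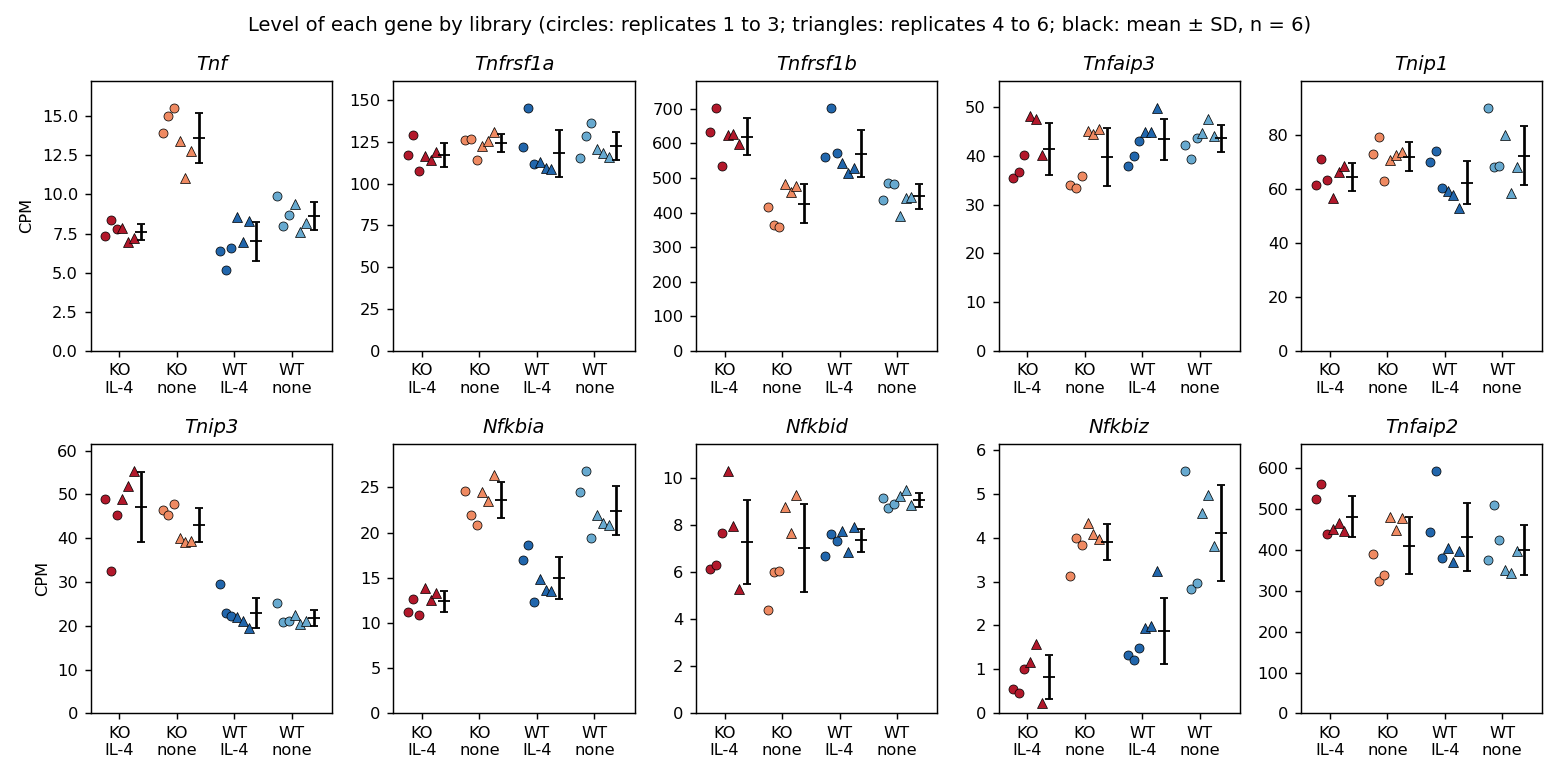
CPM of each of the 10 genes in the 6 libraries of each group, as circles for replicates 1 to 3 and triangles for replicates 4 to 6, with the mean ± SD in black and each axis starting at 0. Tnf is highest in the 6 KO libraries without IL-4, Tnip3 is higher in KO than in WT with and without IL-4, Nfkbia and Nfkbiz are lower with IL-4, and Tnfrsf1b is higher with IL-4.

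Likeness to Tnf was measured by the root mean square distance of log2 CPM over the 24 libraries, each gene centred on its own mean. Predicted genes, with Gm and Rik names, were left out. Of the other tested genes, the nearest to Tnf were Plxna2 at 0.197, Asph at 0.209, Nap1l1 at 0.212, Dgkd at 0.214 and Ets2 at 0.215. Plxna2, a receptor of semaphorins, averaged 38.4 CPM in KO with IL-4 and 53.2 CPM in KO without it, against 32.0 CPM in WT with IL-4 and 39.9 CPM in WT without it. Ets2, a transcription factor, averaged 19.6 CPM in KO with IL-4 and 32.2 CPM in KO without it, against 18.4 CPM in WT with IL-4 and 24.6 CPM in WT without it. Nfkbia was the nearest of the other 9 genes of the set, at a distance of 0.366, and Nfkbiz the farthest, at 0.829, while the median over all genes so ranked was 0.452. This order is a description of likeness over these libraries.

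Tnfrsf1b (chr4:145213463-145246870, minus strand), the gene for TNFR2, had a lowest, median and highest level of 534, 627 and 702 CPM in KO with IL-4, against 357, 438 and 482 CPM in KO without it. In WT it had 514, 552 and 702.5 CPM with IL-4, against 389, 444 and 484 CPM without it. In both genotypes every library with IL-4 stood above every library without it. Tnfrsf1b rose with IL-4 by a log2 fold change of 0.54 in KO (SE 0.09, edgeR adjusted p = 2.84e-05) and of 0.35 in WT (SE 0.09, edgeR adjusted p = 0.00466). KO against WT gave -0.07 without IL-4 and 0.12 with it, with 95% intervals from -0.24 to 0.10 and from -0.05 to 0.29, and neither passed the threshold.

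Tnfrsf1a (chr6:125349362-125362484, plus strand), the gene for TNFR1, the receptor with a death domain, varied little and passed the threshold in none of the comparisons of the main fit. It averaged 117 ± 7.08 CPM in KO with IL-4 and 124 ± 5.59 CPM in KO without it, against 118 ± 14.1 CPM in WT with IL-4 and 122.5 ± 8.18 CPM in WT without it (SD, n = 6). Its log2 fold change with IL-4 was -0.08 in KO and -0.05 in WT, with 95% intervals from -0.21 to 0.05 and from -0.18 to 0.08. For KO against WT it was 0.02 without IL-4 and -0.01 with it, with intervals from -0.11 to 0.15 and from -0.14 to 0.12. For IL-4 in KO, the fit with the library number set as a term gave -0.13, past the threshold (edgeR adjusted p = 0.0412).

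Tnip3 (chr6:65525313-65634040, plus strand), the gene for ABIN-3, a relative of ABIN-1 whose human protein binds A20, was the member with the clearest difference between the genotypes. It had a lowest, median and highest level of 32.5, 48.9 and 55.4 CPM in KO with IL-4, against 19.6, 22.2 and 29.6 CPM in WT with IL-4. Without IL-4 it had 39.1, 42.6 and 47.7 CPM in KO, against 20.4, 21.1 and 25.1 CPM in WT. Every KO library stood above every WT library in each state. Such a separation of 6 from 6 libraries in either direction was met by 2 of the 10 genes without IL-4, Tnf and Tnip3, where 3.48% of all genes met it, and by 1 with IL-4, where 3.63% did.

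The log2 fold change of Tnip3 for KO against WT was 0.98 without IL-4 (SE 0.10, edgeR adjusted p = 1.92e-07) and 1.04 with IL-4 (SE 0.10, edgeR adjusted p = 7.53e-08), which is 1.97-fold and 2.05-fold higher. It passed the threshold in each set of libraries, with 1.09 and 0.90 without IL-4 and 0.77 and 1.31 with IL-4 for replicates 1 to 3 and replicates 4 to 6. The lowest KO library with IL-4 was replicate 2 and the highest WT library with IL-4 was replicate 1, both of replicates 1 to 3. With IL-4 against none, Tnip3 gave 0.13 in KO and 0.07 in WT, neither past the threshold, but in KO the sets parted: replicates 1 to 3 gave -0.14 and replicates 4 to 6 gave 0.39 (edgeR adjusted p = 3.06e-04). In KO without IL-4, replicates 1 to 3 had 45.2 to 47.7 CPM and replicates 4 to 6 had 39.1 to 40.1 CPM.

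Tnfaip3 (chr10:19000910-19015657, minus strand), the gene for A20, an enzyme that edits ubiquitin and ends NF-kB signalling, averaged 41.4 ± 5.34 CPM in KO with IL-4 and 39.8 ± 5.90 CPM in KO without it, against 43.4 ± 4.20 CPM in WT with IL-4 and 43.7 ± 2.72 CPM in WT without it (SD, n = 6). It passed the threshold in none of the comparisons, and its log2 fold changes lay between -0.13 for KO against WT without IL-4 and 0.06 for IL-4 in KO. Tnip1 (chr11:54910785-54962917, minus strand), the gene for ABIN-1, the partner that brings A20 to its targets, averaged 64.4 ± 5.28 CPM in KO with IL-4 and 71.9 ± 5.31 CPM in KO without it, against 62.2 ± 7.96 CPM in WT with IL-4 and 72.2 ± 10.99 CPM in WT without it (SD, n = 6). Its log2 fold change with IL-4 was -0.16 in KO (edgeR adjusted p = 0.236) and -0.21 in WT (edgeR adjusted p = 0.114), with library ranges that overlapped in both genotypes. The WT value passed the threshold without the 3 libraries numbered apart, at -0.28 (edgeR adjusted p = 0.0374), and with the LS number as a block, at -0.21 (edgeR adjusted p = 0.0425). Thus of Tnfaip3, Tnip1 and Tnip3, Tnip3 was the gene past the threshold for genotype in the main fit, and none of the 3 passed it there for IL-4. Tnip1 overlaps the antisense gene Gm12230, and since the strand of counting is not given, reads of this pair cannot be told apart.

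Nfkbia (chr12:55489410-55492647, minus strand), the gene for IkappaB-alpha, which holds NF-kB in the cytoplasm, fell with IL-4 in both genotypes. It had a lowest, median and highest level of 10.9, 12.6 and 13.8 CPM in KO with IL-4, against 20.9, 24.0 and 26.3 CPM in KO without it. In WT it had 12.4, 14.3 and 18.6 CPM with IL-4, against 19.5, 21.5 and 26.9 CPM without it. In each genotype every library with IL-4 lay below every library without it. The log2 fold change was -0.93 in KO (SE 0.10, edgeR adjusted p = 7.22e-08) and -0.58 in WT (SE 0.10, edgeR adjusted p = 1.20e-04), which is 1.91-fold and 1.49-fold lower. The difference between these responses was -0.35, with an unadjusted interval from -0.63 to -0.08 and an adjusted p of 1.00. KO against WT gave 0.08 without IL-4 and -0.28 with it (edgeR adjusted p = 0.794 and 0.147).

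Nfkbiz (chr16:55811375-55838899, minus strand), the gene for IkappaB-zeta, a nuclear cofactor that NF-kB induces and that helps switch on secondary genes such as Il6, had the widest change of the 10 genes and the fewest reads. It had a lowest, median and highest level of 0.240, 0.788 and 1.57 CPM in KO with IL-4, against 3.13, 3.98 and 4.33 CPM in KO without it. In WT it had 1.21, 1.72 and 3.25 CPM with IL-4, against 2.83, 4.18 and 5.52 CPM without it. These levels rest on 2 to 14 counts per library in KO with IL-4, 27 to 48 in KO without it, 12 to 32 in WT with IL-4 and 24 to 47 in WT without it. In KO the libraries with and without IL-4 did not overlap, whereas in WT replicate 6 with IL-4, at 3.25 CPM, lay above the lowest libraries without it.

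Nfkbiz fell with IL-4 by 2.20 on the log2 scale in KO (SE 0.30, edgeR adjusted p = 2.73e-06), a 4.60-fold lower level, and by 1.13 in WT (SE 0.27, edgeR adjusted p = 0.00401), a 2.19-fold lower level. On the log2(GETMM + 1) scale, where the added 1 is close to the level of this gene, limma gave -1.10 in KO and -0.67 in WT, and on the log2(GETMM + 0.1) scale it gave -2.15 and -1.08, all past the threshold. With IL-4 it was lower in KO than in WT by a log2 fold change of -1.14 (SE 0.31, edgeR adjusted p = 0.0284), with KO and WT ranges that overlapped. Limma on log2(GETMM + 1) gave -0.46 for this difference (adjusted p = 0.0463). The edgeR call was lost in each set alone, at -0.93 (adjusted p = 0.361) in replicates 1 to 3 and -1.26 (adjusted p = 0.0617) in replicates 4 to 6, and in a fit of the compared groups alone (adjusted p = 0.132). It was also lost without any 1 of 6 libraries, KO with IL-4 replicate 1, 2 or 6 or WT with IL-4 replicate 4, 5 or 6 (adjusted p from 0.0539 to 0.111). Without IL-4 the genotypes gave -0.07 with a 95% interval from -0.57 to 0.43. The difference between the IL-4 responses was -1.07, with an unadjusted interval from -1.85 to -0.29 and an adjusted p of 1.00.

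Nfkbid (chr7:30421732-30428746, plus strand), the gene for IkappaB-NS, another nuclear member of the family, averaged 7.28 ± 1.79 CPM in KO with IL-4 and 7.02 ± 1.86 CPM in KO without it, against 7.35 ± 0.495 CPM in WT with IL-4 and 9.06 ± 0.285 CPM in WT without it (SD, n = 6). The WT libraries with IL-4, at 6.69 to 7.92 CPM, all lay below those without it, at 8.72 to 9.50 CPM. The log2 fold change in WT was -0.30 (edgeR adjusted p = 0.174). It passed the threshold in a fit of the 2 WT groups alone (edgeR adjusted p = 0.0295). With IL-4 in WT 3 of the 10 genes separated the 6 and 6 libraries in this way (Tnfrsf1b, Nfkbia and Nfkbid), against 8.16% of all genes, and in KO 4 did (Tnf, Tnfrsf1b, Nfkbia and Nfkbiz), against 14.0% of all genes. For KO against WT without IL-4 Nfkbid gave -0.37 (edgeR adjusted p = 0.198).

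Tnfaip2 (chr12:111442469-111455018, plus strand), a TNF-induced gene whose protein M-Sec takes part in forming membrane nanotubes between cells, averaged 481 ± 49.9 CPM in KO with IL-4 and 410.5 ± 69.3 CPM in KO without it, against 432 ± 83.0 CPM in WT with IL-4 and 400.3 ± 61.3 CPM in WT without it (SD, n = 6). Its log2 fold change with IL-4 was 0.23 in KO (edgeR adjusted p = 0.186) and 0.11 in WT (edgeR adjusted p = 0.582), and the ranges of all 4 groups overlapped. It overlaps the antisense gene Gm40578, with which its reads cannot be told apart.

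Within KO without IL-4, 4 of the 10 genes had replicates 1 to 3 wholly below replicates 4 to 6, and Tnf and Tnip3 had them wholly above. Of all genes tested, 16.7% had replicates 1 to 3 wholly below and 16.4% wholly above. Tnfaip2 had 325 to 391 CPM in replicates 1 to 3 and 449.6 to 480.2 CPM in replicates 4 to 6. Tnfrsf1b had 357 to 416 CPM and 459.7 to 482 CPM in these sets. Tnfaip3 had 33.5 to 35.9 CPM and 44.6 to 45.6 CPM, and Nfkbid had 4.41 to 6.05 CPM and 7.65 to 9.26 CPM. Tnf had 13.9 to 15.5 CPM in replicates 1 to 3 and 11.05 to 13.5 CPM in replicates 4 to 6. In WT without IL-4, Tnfrsf1b, Nfkbid and Tnfaip2 overlapped between the sets, and Tnfaip3 had 39.5 to 43.7 CPM and 44.1 to 47.7 CPM. The comparison of KO with WT without IL-4 accordingly took opposite signs in the sets for Tnfaip2, at -0.29 (edgeR adjusted p = 0.472) in replicates 1 to 3 and 0.38 (edgeR adjusted p = 2.50e-04) in replicates 4 to 6. Tnfrsf1b gave -0.28 and 0.16, neither past the threshold. Nfkbid gave -0.67 in replicates 1 to 3 (edgeR adjusted p = 0.0399) and -0.10 in replicates 4 to 6. With IL-4, replicates 4 to 6 alone gave 0.22 for Tnfrsf1b (edgeR adjusted p = 0.0112) and 0.21 for Tnfaip2 (edgeR adjusted p = 0.0214), against 0.03 and 0.11 in replicates 1 to 3. The results for Tnf and Tnip3 in KO without IL-4, and for Tnf, Tnfrsf1b, Nfkbia and Nfkbiz with IL-4 in KO, passed the threshold in both sets. No call for IL-4 in WT passed in both sets. In WT, Tnfrsf1b and Nfkbia missed the threshold in replicates 1 to 3 (edgeR adjusted p = 0.0621 and 0.0694). Nfkbiz missed it in replicates 4 to 6 (edgeR adjusted p = 0.0887).

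**Figure D4:**
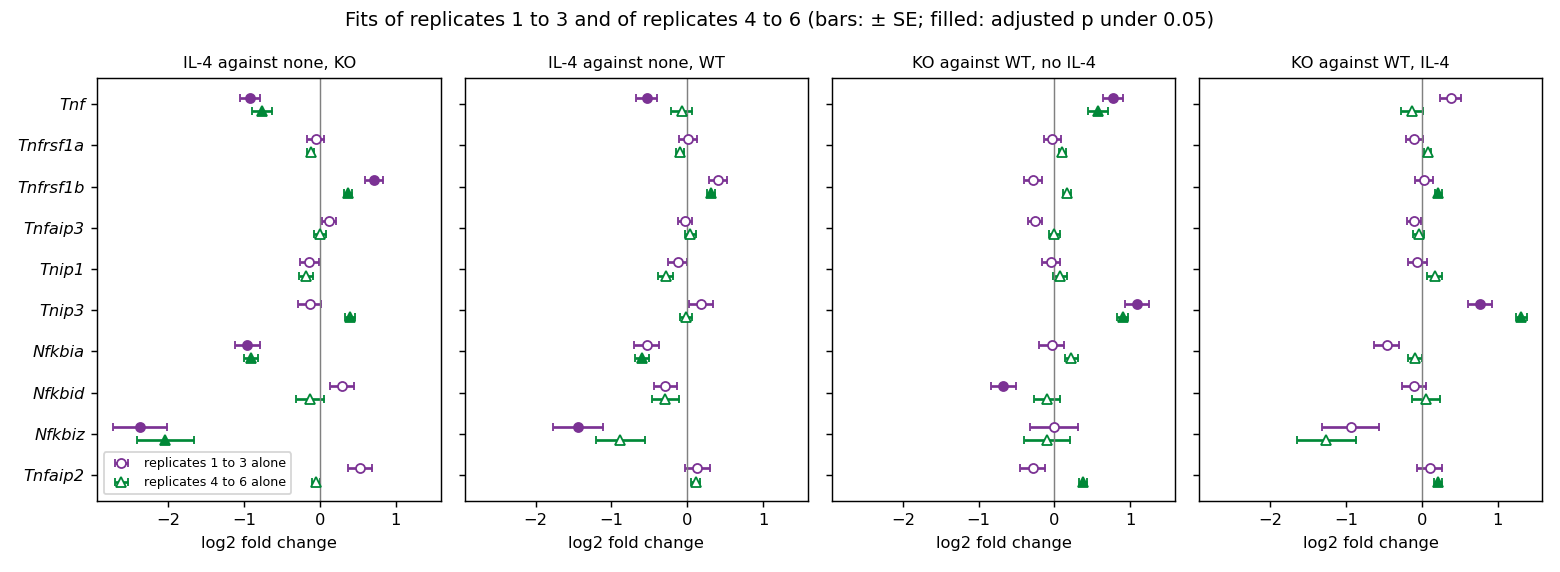
Log2 fold changes of the 10 genes from edgeR fits of replicates 1 to 3 (circles) and of replicates 4 to 6 (triangles), with bars of ± SE and filled symbols for an adjusted p under 0.05. For KO against WT without IL-4 both sets agree in sign for Tnf and Tnip3 and part for Tnfaip2, at -0.29 and 0.38.

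For the difference between the IL-4 responses of KO and WT, edgeR called 0 of the 10 genes and 0 of 12797 in all, 0% of the genes tested. At an unadjusted p under 0.05 there were 3 of the 10 genes (Tnf, Nfkbiz and Nfkbia) and 390 genes in all. DESeq2 called 1 gene in all and limma on log2(GETMM + 1) called 3, with 0 of the 10 genes by either. The fall of Tnf, past the threshold in KO and not in WT in the main fit, is thus not shown to differ between the genotypes after adjustment.

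Other genes of the pathway were followed on 11 lists of 144 genes, 116 of which were tested. The lists were chosen with earlier results of these data known, so the shares of genes called are a description only. With IL-4, 39 of the 116 passed the threshold in KO, 21 higher and 18 lower, and 31 in WT, 13 higher and 18 lower, which is 33.6% and 26.7% against 23.6% and 16.4% of all genes. For KO against WT 7 passed in each state, which is 6.03%, against 4.52% without IL-4 and 4.59% with it over all genes. Mapkapk2, the gene knocked out, is among the 7 in each state, and its call follows from the design.

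Of 5 NF-kB subunits, Rel, which encodes c-Rel, rose in both genotypes, and the other 4 did not pass. Rel was at 71.1 ± 8.57 CPM with IL-4 and 49.2 ± 1.56 CPM without it in KO (log2 fold change 0.53, edgeR adjusted p = 3.79e-05). In WT it was at 61.8 ± 4.89 CPM with IL-4 and 47.3 ± 7.20 CPM without it (0.39, edgeR adjusted p = 0.00216). The median of these 5 was -0.07 in KO and -0.05 in WT. Of 9 genes of the IKK complex and its upstream kinase TAK1, Ikbkg, which encodes the scaffold NEMO, rose by 0.26 in KO and 0.23 in WT, and Tab2 fell by 0.37 in WT. In KO the log2 fold change of Tab2 was -0.28 and did not pass (edgeR adjusted p = 0.0694). The medians of this list were -0.01 in KO and -0.08 in WT. Of 11 genes of the TNF receptor complex, the adaptor Traf5 rose by a log2 fold change of 1.20 in KO and 0.58 in WT and Traf1 fell by 0.71 and 0.79, with list medians of 0.08 and -0.00. Of 13 other inhibitors and deubiquitinases, Nfkbie, which encodes IkappaB-epsilon, fell by 0.51 in KO and 0.69 in WT, and the remaining 12 did not pass, with list medians of -0.03 and -0.07. For these 4 lists 0 genes passed for KO against WT in either state.

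For shedding of TNF, Rhbdf2, whose protein iRhom2 carries ADAM17 to the cell surface in macrophages, rose with IL-4 by a log2 fold change of 0.73 in KO and 0.50 in WT, alone of the 5 genes listed, with list medians of 0.08 and -0.01. Adam17 itself was higher in KO than in WT with IL-4, at 231 ± 9.56 CPM against 199 ± 11.4 CPM (log2 fold change 0.22, edgeR adjusted p = 0.00316). Timp3, an inhibitor of ADAM17 that fibroblasts also make, was lower in KO, at 1.54 ± 0.495 CPM against 4.58 ± 1.15 CPM in WT with IL-4 and 1.48 ± 0.567 CPM against 5.42 ± 1.08 CPM in WT without it. Its log2 fold changes for KO against WT were -1.55 and -1.86 (edgeR adjusted p = 5.10e-05 and 2.85e-06), beside the lower stromal markers given above, whose part in it was not tested. The medians of this list for KO against WT were 0.11 with IL-4 and -0.07 without it.

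Among 7 genes of the death branch of TNFR1, Ripk3 and Mlkl, which act in necroptosis, rose with IL-4 in KO by log2 fold changes of 0.60 and 0.38. In WT they gave 0.44 and 0.27 and did not pass (edgeR adjusted p = 0.0526 and 0.130). The list medians were 0.01 in KO and -0.06 in WT. Of 14 tested receptors of the wider TNF family, 5 rose and 1 fell with IL-4 in KO and 3 rose and 1 fell in WT, with list medians of 0.29 and 0.15. Tnfrsf26, a receptor of the family in the mouse, rose by a log2 fold change of 1.49 in KO and 1.01 in WT, and it was higher in KO than in WT with IL-4 by 0.42 (edgeR adjusted p = 0.0144). Of 16 ligands of the family 4 were tested, and Tnfsf10, which encodes TRAIL, fell with IL-4 to 0.459 ± 0.217 CPM in KO, against 1.18 ± 0.256 CPM without it, and to 0.426 ± 0.153 CPM in WT, against 1.05 ± 0.206 CPM without it. The list medians were -0.43 and -0.15.

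Of 19 tested further targets of NF-kB, 5 rose and 5 fell with IL-4 in KO and 4 rose and 4 fell in WT, with list medians of 0.07 and -0.02 against -0.00 and -0.02 over all genes. Ier3, an early response gene, rose by a log2 fold change of 2.33 in KO and 1.76 in WT, and Irf1, an interferon-linked transcription factor, by 1.26 and 0.93. The chemokine genes Ccl3 and Ccl4 fell by 1.03 and 1.15 in KO and by 0.93 and 1.00 in WT. For KO against WT, 1 of the 19 was higher and 3 were lower without IL-4, and 1 was higher (Cxcl2) and 1 lower (Il1a) with it, with list medians of -0.00 and -0.03. Without IL-4, Cxcl2, a chemokine that draws neutrophils, was higher at 1.81 ± 0.551 CPM in KO against 0.820 ± 0.404 CPM in WT (edgeR adjusted p = 0.0269). Il1a was lower, at 2.83 ± 0.851 CPM in KO against 6.84 ± 1.95 CPM in WT (edgeR adjusted p = 2.13e-04). Ptgs2, which encodes the cyclooxygenase COX-2, was lower, at 0.300 ± 0.133 CPM in KO against 1.46 ± 0.420 CPM in WT (edgeR adjusted p = 2.04e-05), and with IL-4 its log2 fold change of -0.88 did not pass (edgeR adjusted p = 0.123). Bcl2a1b, of the BCL2 family that restrains cell death, was lower without IL-4, at 82.7 ± 18.6 CPM in KO against 112 ± 13.8 CPM in WT (SD, n = 6, edgeR adjusted p = 0.0158). The stromal markers were lower in the same KO libraries, and their part in these values was not tested.

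Of 19 Toll-like receptors and adaptors, 3 rose and 6 fell with IL-4 in KO and 1 rose and 7 fell in WT, with list medians of -0.05 and -0.08. Cd14, the co-receptor for bacterial lipopolysaccharide, fell to 20.6 ± 5.50 CPM in KO with IL-4, against 90.8 ± 9.68 CPM without it (log2 fold change -2.13, edgeR adjusted p = 3.42e-09), and to 23.2 ± 4.74 CPM in WT with IL-4, against 66.5 ± 18.1 CPM without it (-1.53, edgeR adjusted p = 1.13e-06). Tlr2, a receptor for bacterial lipoproteins, fell by 1.84 in KO and 1.63 in WT. Of 11 genes for proteins that bind AU-rich messages and the MK2 kinases, 2 rose and 2 fell with IL-4 in KO, and 1 rose and 1 fell in WT. Mapkapk3, the closest relative of Mapkapk2, rose with IL-4 by a log2 fold change of 0.79 in KO and 0.52 in WT. Zfp36, which encodes tristetraprolin, rose by 0.35 in KO, at 115 ± 11.4 CPM with IL-4 and 90.2 ± 2.10 CPM without it (edgeR adjusted p = 0.00460), while in WT its log2 fold change was -0.07 (edgeR adjusted p = 0.650). Zfp36l2, which encodes a relative of tristetraprolin, fell by 0.22 in KO (edgeR adjusted p = 0.0233) and by 0.26 in WT (edgeR adjusted p = 0.0129). Mapk14, which encodes the kinase p38-alpha that activates MK2, fell by 0.24 in KO (edgeR adjusted p = 0.00796). In WT its log2 fold change was -0.11 (edgeR adjusted p = 0.285). Of the 11 genes of this list Mapkapk2 alone passed for KO against WT, in both states, and the list medians for IL-4 were -0.04 in KO and -0.09 in WT.

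**Figure D5:**
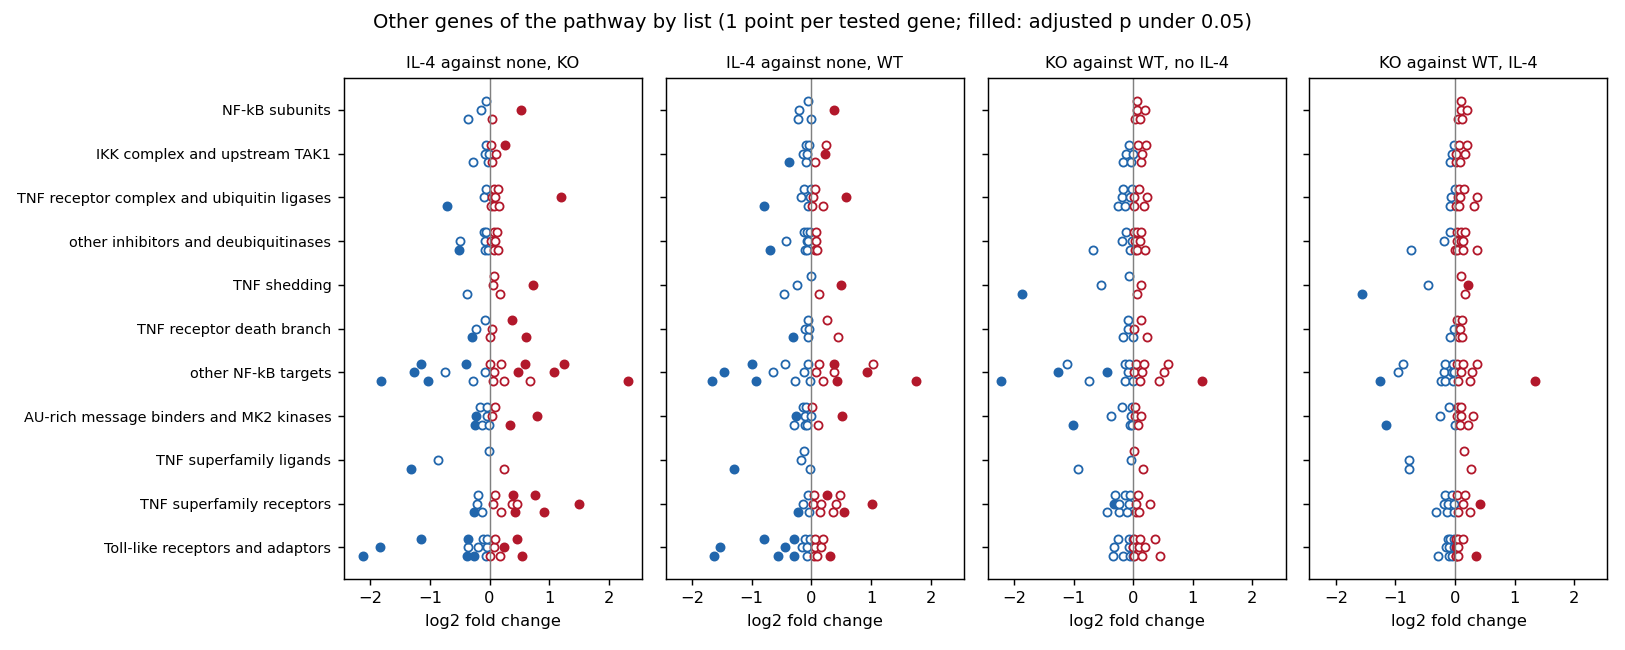
Log2 fold changes from edgeR of the tested genes of 11 pathway lists for IL-4 against none in KO and in WT and for KO against WT without and with IL-4, with 1 point per gene, red above 0 and blue below, filled where the adjusted p was under 0.05. With IL-4 39 and 31 of 116 genes are filled in KO and WT, against 7, Mapkapk2 among them, in each comparison of KO with WT. There the lowest filled points of the shedding list are Timp3.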

How the data were processed

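Total RNA of 24 libraries was read as 40 bp single ends after a Kapa Hyperprep preparation, per the labels' protocols. For strandedness the labels say nothing. The authors deposited rounded expected counts and GETMM values, a signal per gene scaled for length and library. The submitters' processing notes name Bowtie2 2.3.4.1, RSEM 1.3.0, CASAVA 2.8.0 and edgeR, and mm10 as the build, without order or settings. Checked on 13047 genes, each GETMM value equals the deposited count times 1 factor for the gene and 1 for the library.

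Genes were kept by filterByExpr at a minimum count of 10 (12797 genes, 99.8% of counts), scaled by TMM, and tested by edgeR's robust quasi-likelihood test (edgeR 4.0.16, R 4.3.3) in 1 fit of 4 groups without covariates. Benjamini-Hochberg adjustment ran over the 12797 genes, and the threshold was 0.05. SE and 95% intervals were derived from log2 fold change and F and are not adjusted. CPM uses TMM library sizes, marker sums included. Of the columns with values, 0 were left unmatched to a sample. Within groups, the most alike pair of libraries had a chi-square of 2.68 per degree of freedom, above sampling noise, and no library was counted as deposited more than once.

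The genes named were the 10 members in every comparison, Mapkapk2, up to 3 higher and 3 lower called genes of each pathway list, and the 5 genes nearest to Tnf with Gm and Rik names left out. A result that this rule names is not reported here. Members and lists were chosen with earlier results of these data known. Alternatives were DESeq2 1.42.0, RLE size factors in edgeR, no count filter, CPM of at least 1 in 6 libraries, the compared groups alone, the library number set as a term, leaving out the 3 libraries numbered apart, each set alone, limma 3.58.1 on log2(GETMM + 1) and log2(GETMM + 0.1), replicate number or LS number as a block, and leaving out each library. The LS number stands in the labels, each number on 1 M0 and 1 M2 library of a genotype, and the labels do not say what it marks.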

Additional observations from a re-analysis of the deposited data

Results flagged for a closer look

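In WT with IL-4, replicate 2 lay far above the other 5 libraries for 3 of the genes: Tnfrsf1a at 145 CPM, where the others had 109 to 122 CPM, Tnfrsf1b at 702.5 CPM, where the others had 514 to 572 CPM, and Tnfaip2 at 594 CPM, where the others had 371 to 444 CPM. This library is 1 of the 3 numbered apart. In the same group replicate 1 had the highest Tnip3, at 29.6 CPM, where the others had 19.6 to 23.0 CPM. These are 4 of 40 gene and group combinations, and chance alone sets apart about 1 in 20.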

How the results depend on the processing

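No log2 fold change past the threshold turned its sign under any alternative, and no scaling moved the median of all genes by over 0.1. With replicates 1 to 3 alone, genes called for IL-4 were 1469 in KO (3024 in all libraries) and 860 in WT (2103), and for KO with IL-4 309 (588). With replicates 4 to 6 alone 953 genes were called for KO without IL-4 (579), 1059 for KO with IL-4 and 21 for the difference between IL-4 responses (0). The library number set as a term gave 1044 and 919 for KO without and with IL-4. For the difference between IL-4 responses DESeq2 called 1 gene and limma on log2(GETMM + 1) called 3. Of the 10 genes, 1 was called for KO with IL-4 in the compared groups alone and in replicates 1 to 3, since Nfkbiz was lost, and 1 to 2 when a library was left out. For IL-4 in WT leaving out a library gave 3 to 5 of the 10 genes, the 5 being without WT M0 replicate 5, where Tnf and Tnip1 passed (adjusted p = 0.0496 and 0.0438). The cause was not tested.

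Pairing was not taken as given: M0 and M2 libraries with the same LS number, whose meaning the labels do not state, had correlations of -0.04 to 0.35 in 12 pairs. Of these, 4 were at or under 0.1, and 7 of the 12 matched their own number best, a hint of pairing from the data and not from the design. With replicate number as a block the calls among the 10 genes were 4 for IL-4 in KO, 3 for IL-4 in WT, 2 each for KO without and with IL-4 and 0 for the difference between IL-4 responses, the numbers found without the block. With the LS number as a replicate block 5 of the 10 genes were called for IL-4 in WT, Tnf (adjusted p = 0.0347) and Tnip1 (adjusted p = 0.0425) among them, and 2 genes for the difference between IL-4 responses. Depth limits Nfkbiz most, with 2 to 14 counts per library in KO with IL-4.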
